A study of Mus musculus with 6 samples.

Results

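Regulatory T cells are CD4+ T cells that restrain immune responses, and many of them arise in the thymus under the transcription factor Foxp3. The genes described here are 10 genes of their programme, Foxp3, Ikzf2, Ikzf4, Il2ra, Tnfrsf4, Tnfrsf18, Gpr83, Lrrc32, Nt5e and Capg. They were chosen by name, with earlier results of these data known, and each matched 1 of the 22298 genes listed. All 10 passed the filter on low counts and thus stood among the 14121 genes tested. The messenger RNA came from sorted mouse thymocytes of 2 genotypes on the C57BL/6 strain, with no treatment. Toxf/fPdcd1Cre mice carried both floxed copies of Tox, which encodes an HMG-box transcription factor of T cell development, together with Cre, a DNA recombinase, under a name that refers to Pdcd1 (the gene that encodes the PD-1 receptor). Toxf/f mice carried the floxed Tox copies alone. There were 3 samples per genotype; in both, replicates 1 and 2 were taken at an age of 3 weeks and replicate 3 at 4 weeks.

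The deposited values of Toxf/f replicates 1 and 2 were identical, and both tables head their columns WT-2, so they were counted as 1 library, and 3 Toxf/fPdcd1Cre libraries were set against 2 Toxf/f libraries. The labels do not tie the samples to individual mice, and the p-values below can speak only to the variation among the 5 libraries. Library totals ran from 14245492 to 16199195 estimated counts. The titles name double-negative thymocytes, precursors without CD4 and CD8, and the protocol names only their DN2 stage. Levels are given in CPM, the estimated count relative to the scaled total of its library. Cd8a averaged 1826 ± 195 CPM (SD, n = 3) in Toxf/fPdcd1Cre and 1623 ± 322 CPM (SD, n = 2) in Toxf/f libraries, and Cd4 averaged 859 ± 133 CPM in Toxf/fPdcd1Cre and 877 ± 45.5 CPM in Toxf/f libraries. Levels this high go against a pure double-negative population. The libraries are therefore called by their genotype below. Tox itself stood at 19.2, 16.4 and 13.8 CPM in the Toxf/fPdcd1Cre libraries, replicates 1 to 3, against 121 CPM in the Toxf/f library of replicates 1 and 2 and 105 CPM in Toxf/f replicate 3. Its log2 fold change was -2.78 ± 0.161 (SE; edgeR, adjusted p = 6.72e-06). Which exon of Tox is flanked by loxP sites is not given in the sources used here.

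In the mouse thymus, strong T cell receptor signals together with CD28 costimulation raise the interleukin-2 receptor chain CD25 (Il2ra) and the receptors OX40 (Tnfrsf4) and GITR (Tnfrsf18) on developing regulatory T cells, and interleukin-2 acting through STAT5 then helps to start Foxp3. Foxp3 works with Ikaros family factors such as Helios (Ikzf2) and Eos (Ikzf4). Several of the genes are not peculiar to regulatory T cells: CD25 also marks early thymocytes at the DN2 and DN3 stages, and Helios, CD73 (Nt5e) and Capg are used by other cells of the thymus.

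Of the 10 genes, 5 fell in Toxf/fPdcd1Cre libraries, namely Foxp3, Tnfrsf4, Gpr83, Ikzf4 and Tnfrsf18. None rose, and the other 5 did not pass the threshold of an adjusted p under 0.05 (edgeR's quasi-likelihood test, Benjamini-Hochberg over all 14121 genes). Across all genes tested, 1.51% were called lower and 0.135% higher. At an unadjusted p under 0.05, and likewise in DESeq2, 6 of the 10 were lower and 0 higher, with Lrrc32 as the sixth. Over all genes tested, 7.26% were lower and 3.08% higher at an unadjusted p under 0.05, and DESeq2 called 2.24% lower and 0.305% higher. The counts for the gene lists further down stand against these same shares. The fitted changes ran from -4.96 for Foxp3 to 0.13 for Il2ra on the log2 scale. Their median was -1.17, beside a median of 0.03 over all genes tested. The libraries of the genotypes did not overlap for 7 of the genes, all of them lower in Toxf/fPdcd1Cre, where 13.5% of all genes tested were lower without overlap. The Cre libraries overlapped with the Toxf/f libraries for Ikzf2, Il2ra and Nt5e. With 3 libraries against 2, an exact permutation test of a single gene cannot give a two-sided p below 0.1, so the calls rest on the model fitted across all genes. In whole-population RNA, fewer cells of a type and less RNA per cell cannot be told apart.

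**Figure D1:**
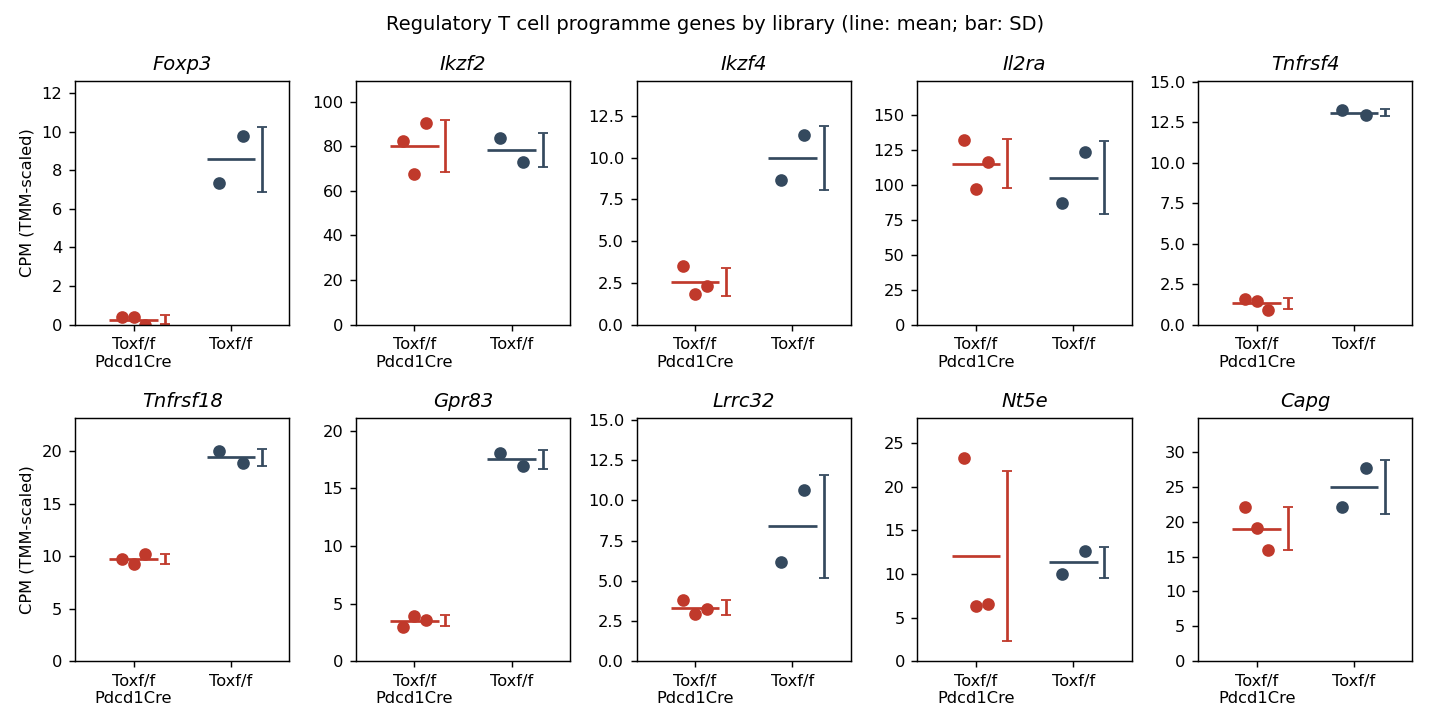
Level of each of the 10 genes in CPM (TMM-scaled) on linear axes that start at 0. Points are the 3 Toxf/fPdcd1Cre and 2 Toxf/f libraries, and bars are the mean with its SD. Foxp3, Tnfrsf4, Gpr83, Ikzf4, Tnfrsf18, Lrrc32 and Capg were lower in every Toxf/fPdcd1Cre library than in either Toxf/f library, while Nt5e had 1 high Toxf/fPdcd1Cre library at 23.3 CPM.

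Foxp3, the forkhead transcription factor that defines the regulatory T cell lineage (ENSMUSG00000039521; chromosome X, 7573644 to 7595245, plus strand, GRCm38), had 0.41, 0.38 and 0 CPM in Toxf/fPdcd1Cre replicates 1 to 3. The Toxf/f libraries held 7.36 CPM in replicates 1 and 2 and 9.76 CPM in replicate 3. All 3 Toxf/fPdcd1Cre libraries were thus far below both Toxf/f libraries, and replicate 3 held no Foxp3 count at all. The underlying estimated counts were 6.19, 6.09 and 0 in Toxf/fPdcd1Cre against 114.92 and 162.49 in Toxf/f libraries. A count of 0 in Toxf/fPdcd1Cre replicate 3 allows up to 3 counts, or 0.206 CPM, by counting error. The mean was 0.264 ± 0.229 CPM (SD, n = 3) in Toxf/fPdcd1Cre, which was 3.09% of the mean of 8.56 ± 1.69 CPM (n = 2) in Toxf/f libraries. The log2 fold change was -4.96 ± 0.573 (SE; 95% interval -6.22 to -3.71; edgeR, adjusted p = 0.00127). Only 11 of the 14121 genes tested had a lower log2 fold change. Without Toxf/f replicate 3 Foxp3 was not called (edgeR, adjusted p = 0.0868).

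The Foxp3 locus overlaps Ccdc22 and Ppp1r3f, both on the opposite strand, and 4 of the 5 libraries held a Foxp3 count that was not whole. Since any use of strand in counting is not given in the sources used here, reads of these neighbours cannot be fully told apart from those of Foxp3. Ccdc22 averaged 30.0 CPM in Toxf/fPdcd1Cre and 28.9 CPM in Toxf/f libraries, with a log2 fold change of 0.05 (edgeR, adjusted p = 0.960). Ppp1r3f averaged 1.51 CPM in Toxf/fPdcd1Cre and 3.04 CPM in Toxf/f libraries, with a log2 fold change of -1.005 (edgeR, adjusted p = 0.372). Neither neighbour was called.

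RefSeq gives 2 transcription starts of Foxp3 on GRCm38.p6, and the 300 bases around each are shown because Foxp3 had the lowest log2 fold change of the 10 genes. Each window runs from 250 bases before the start to 50 bases into the transcript, on the plus strand. Both windows lie inside the Foxp3 gene as positioned above, which begins at 7573644, and no window around that position was searched. They were searched on both strands for 5 letter patterns of factors known to bind at this locus in regulatory T cells: forkhead (TGTTTAC), RUNX (TGTGGT), STAT (TTCNNNGAA), NF-kB (GGANTTTCC) and NFAT (GGAAAA). Capitals mark the letters that matched.
Foxp3, chrX:7579426-7579725: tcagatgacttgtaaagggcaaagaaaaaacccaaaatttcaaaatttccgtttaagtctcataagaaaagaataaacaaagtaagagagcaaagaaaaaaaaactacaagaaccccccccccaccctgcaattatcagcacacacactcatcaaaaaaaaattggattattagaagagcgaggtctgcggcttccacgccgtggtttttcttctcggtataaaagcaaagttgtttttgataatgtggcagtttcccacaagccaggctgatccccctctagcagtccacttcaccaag
Foxp3, chrX:7580233-7580532: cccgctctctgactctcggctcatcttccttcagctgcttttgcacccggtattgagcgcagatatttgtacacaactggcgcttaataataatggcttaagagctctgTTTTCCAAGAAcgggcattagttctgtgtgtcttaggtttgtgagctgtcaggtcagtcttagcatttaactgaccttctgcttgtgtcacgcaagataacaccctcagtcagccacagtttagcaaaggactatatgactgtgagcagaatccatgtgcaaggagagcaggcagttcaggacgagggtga
The first window held none of the patterns. The second held a STAT and an NFAT pattern, which overlap in its single stretch of capitals. Of 32851 promoter windows of the same length, 3.65% held the forkhead pattern, 16.8% the RUNX, 8.30% the STAT, 1.25% the NF-kB and 23.4% the NFAT pattern. A match is letters in a window, not a bound site.

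Ikzf4 encodes Eos, an Ikaros family zinc-finger factor that works with Foxp3 as a corepressor in mouse regulatory T cells (ENSMUSG00000002578; chromosome 10, 128630843 to 128645991, minus strand). It had 3.48, 1.85 and 2.34 CPM in the Toxf/fPdcd1Cre libraries, against 8.64 and 11.3 CPM in the Toxf/f libraries. Every Toxf/fPdcd1Cre library was below both Toxf/f libraries, with a mean of 2.56 ± 0.838 CPM (SD, n = 3) in Toxf/fPdcd1Cre against 9.98 ± 1.90 CPM (n = 2) in Toxf/f. A log2 fold change of -1.96 ± 0.314 (SE; edgeR, adjusted p = 0.00919) made this a 3.90-fold fall. The call was lost without either Toxf/f library, at an adjusted p of 0.0849 without replicates 1 and 2 and of 0.241 without replicate 3 (edgeR). It was also lost in limma on log2(FPKM + 0.1), at an adjusted p of 0.0628.

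Ikzf2 encodes Helios, a factor of thymic regulatory T cells that other thymocytes also express, and did not follow Ikzf4. Its levels were 82.4, 67.3 and 90.6 CPM in Toxf/fPdcd1Cre and 83.9 and 72.9 CPM in Toxf/f libraries, so that both Toxf/f libraries lay within the range of the Toxf/fPdcd1Cre libraries. The log2 fold change was 0.03 ± 0.153, with a 95% interval of -0.30 to 0.37 (SE; edgeR, adjusted p = 0.978), and the intervals of Ikzf2 and Ikzf4 (-2.65 to -1.28) do not overlap. Per length, in FPKM (fragments scaled to transcript length and library size), Ikzf4 stood at 0.0430, 0.0270 and 0.0308 of the level of Ikzf2 in the Toxf/fPdcd1Cre libraries and at 0.177 and 0.249 of it in the Toxf/f libraries. The remaining Ikaros family genes on the list, Ikzf1, Ikzf3 and Ikzf5, were all tested and none was called by edgeR or DESeq2; at an unadjusted p under 0.05 in edgeR 1, Ikzf3, was higher. Ikzf1 (Ikaros) averaged 835 ± 101 CPM in Toxf/fPdcd1Cre and 795 ± 81.3 CPM in Toxf/f libraries, and Ikzf3 (Aiolos) 271 ± 12.5 CPM in Toxf/fPdcd1Cre and 214 ± 16.5 CPM in Toxf/f libraries. Of the other forkhead P genes, Foxp1 had a log2 fold change of -0.13 ± 0.148 and Foxp4 of 0.04 ± 0.128, and neither was called (edgeR, adjusted p = 0.876 and 0.966). Foxp2 did not pass the filter on low counts, with at most 2 counts in a library.

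**Figure D2:**
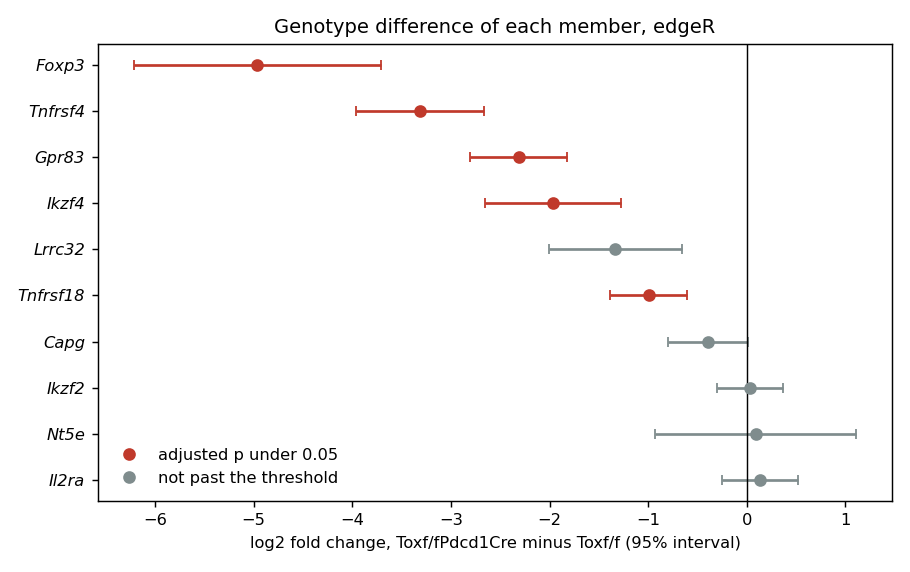
Log2 fold change, Toxf/fPdcd1Cre minus Toxf/f, of each of the 10 genes on the horizontal axis, with its 95% interval from edgeR; red marks an adjusted p under 0.05. The intervals of Foxp3 (-6.22 to -3.71), Tnfrsf4, Gpr83, Ikzf4, Tnfrsf18 and Lrrc32 lie below 0, those of Capg, Ikzf2, Il2ra and Nt5e include 0, and Lrrc32, Capg, Ikzf2, Il2ra and Nt5e did not pass the adjusted threshold.

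Tnfrsf4 and Tnfrsf18 encode the costimulatory receptors OX40 and GITR, members of the TNF receptor superfamily, and are neighbours on chromosome 4, 9552 bases apart on the plus strand (ENSMUSG00000029075, 156013843 to 156016612; ENSMUSG00000041954, 156026164 to 156028895). Tnfrsf4 had 1.57, 1.47 and 0.894 CPM in the Toxf/fPdcd1Cre libraries, against 13.3 and 13.0 CPM in the Toxf/f libraries. The Toxf/f libraries differed little from each other, and every Toxf/fPdcd1Cre library lay far below them. The mean of 1.31 ± 0.365 CPM (SD, n = 3) was 10.01% of the Toxf/f mean of 13.1 ± 0.214 CPM (n = 2). Its log2 fold change was -3.31 ± 0.296 (SE; edgeR, adjusted p = 0.000326), and it was called in all 16 alternative analyses that tested it, among them those without each library.

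Tnfrsf18 had 9.77, 9.25 and 10.2 CPM in Toxf/fPdcd1Cre, against 19.98 and 18.9 CPM in Toxf/f libraries. The libraries of each genotype lay close together with no overlap between genotypes. Its log2 fold change was -0.996 ± 0.179 (SE; edgeR, adjusted p = 0.0172). This was a 1.99-fold fall, smaller than that of Tnfrsf4 and with a smaller SE. The 95% intervals of the log2 fold changes of Tnfrsf4 (-3.96 to -2.66) and Tnfrsf18 (-1.39 to -0.60) do not overlap. The Tnfrsf18 call was lost without any of 3 libraries: the adjusted p was 0.0582 without Toxf/fPdcd1Cre replicate 3, 0.175 without Toxf/f replicates 1 and 2 and 0.189 without Toxf/f replicate 3 (edgeR). Per length, Tnfrsf4 stood at 0.184, 0.181 and 0.1005 of the FPKM level of Tnfrsf18 in the Toxf/fPdcd1Cre libraries and at 0.754 and 0.784 of it in the Toxf/f libraries. The gene on the other side of Tnfrsf4, Sdf4, ends 233 bases from it on the same strand. It had a log2 fold change of -0.09 ± 0.138 (edgeR, adjusted p = 0.924).

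The promoter windows of both receptor genes are shown since these genes are neighbours that both fell, and the same patterns were searched.
Tnfrsf4, chr4:156013445-156013744, plus strand: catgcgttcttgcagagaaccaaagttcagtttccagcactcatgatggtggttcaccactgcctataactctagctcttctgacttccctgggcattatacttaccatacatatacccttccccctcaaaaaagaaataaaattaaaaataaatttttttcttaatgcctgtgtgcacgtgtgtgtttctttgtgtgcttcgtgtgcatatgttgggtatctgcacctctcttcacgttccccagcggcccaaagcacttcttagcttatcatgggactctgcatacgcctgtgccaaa
Tnfrsf18, chr4:156026072-156026371, plus strand: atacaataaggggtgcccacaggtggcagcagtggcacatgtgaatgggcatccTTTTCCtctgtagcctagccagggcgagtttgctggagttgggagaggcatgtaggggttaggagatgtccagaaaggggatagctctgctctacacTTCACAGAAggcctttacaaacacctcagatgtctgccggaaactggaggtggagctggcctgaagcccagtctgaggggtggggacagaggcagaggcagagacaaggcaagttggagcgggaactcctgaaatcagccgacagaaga
The Tnfrsf4 window held none of the 5 patterns. It ends at 156013744, before the gene start of 156013843 given above, while the Tnfrsf18 window spans the gene start of 156026164. The Tnfrsf18 window held 1 NFAT pattern (the first stretch of capitals, read on the minus strand) and 1 STAT pattern (the second stretch), which do not overlap. No forkhead pattern was found in either window.

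Il2ra, which encodes the interleukin-2 receptor chain CD25, had the highest mean FPKM of the 10 genes in both genotypes. It had 132, 97.4 and 116 CPM in the Toxf/fPdcd1Cre libraries and 86.9 and 124 CPM in the Toxf/f libraries. The groups overlapped, and the Toxf/f libraries lay further apart than the means of 115 ± 17.5 CPM (SD, n = 3) in Toxf/fPdcd1Cre and 105 ± 26.1 CPM (n = 2) in Toxf/f. This gave a log2 fold change of 0.13 ± 0.176, with a 95% interval of -0.25 to 0.52 (SE; edgeR, adjusted p = 0.903). Foxp3 stood at 0.00374, 0.00643 and 0 of the FPKM level of Il2ra in the Toxf/fPdcd1Cre libraries and at 0.122 and 0.125 of it in the Toxf/f libraries. The neighbouring gene Il15ra, a receptor chain for interleukin-15, averaged 11.3 CPM in Toxf/fPdcd1Cre and 19.2 CPM in Toxf/f libraries and was not called (log2 fold change -0.77; edgeR, adjusted p = 0.111).

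Among the surface proteins and enzymes, Gpr83, an orphan G protein-coupled receptor long used as a regulatory T cell marker in mice (ENSMUSG00000031932; chromosome 9, 14860210 to 14870789, plus strand), had 3.01, 3.96 and 3.58 CPM in the Toxf/fPdcd1Cre libraries, against 18.1 and 16.9 CPM in the Toxf/f libraries. Both groups were tight and well apart, at 3.51 ± 0.479 CPM (SD, n = 3) in Toxf/fPdcd1Cre and 17.5 ± 0.843 CPM (n = 2) in Toxf/f. Gpr83 had a log2 fold change of -2.31 ± 0.223 (SE; edgeR, adjusted p = 0.00049), and like Tnfrsf4 it was called in all 16 alternatives that tested it. Next to it, 15025 bases away on the opposite strand, lies Izumo1r, which encodes folate receptor 4, another regulatory T cell surface marker. Izumo1r had 15.2, 4.60 and 5.02 CPM in Toxf/fPdcd1Cre, against 21.2 and 19.6 CPM in Toxf/f libraries, and was not called (log2 fold change -1.31 ± 0.403; edgeR, adjusted p = 0.186). The Gpr83 promoter window, shown because Gpr83 fell in every setting that tested it, held none of the 5 patterns.
Gpr83, chr9:14859960-14860259, plus strand: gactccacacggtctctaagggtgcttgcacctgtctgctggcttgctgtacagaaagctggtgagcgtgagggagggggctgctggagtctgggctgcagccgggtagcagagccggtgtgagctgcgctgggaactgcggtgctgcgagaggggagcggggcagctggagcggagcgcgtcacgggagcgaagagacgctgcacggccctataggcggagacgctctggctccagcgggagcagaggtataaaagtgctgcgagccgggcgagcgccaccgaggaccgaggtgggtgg

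Lrrc32 encodes GARP, which holds latent TGF-beta on the surface of activated regulatory T cells. It had 3.83, 2.94 and 3.23 CPM in the Toxf/fPdcd1Cre libraries, against 6.15 and 10.7 CPM in the Toxf/f libraries. All Toxf/fPdcd1Cre libraries lay below both Toxf/f libraries, which themselves differed more from each other than the Toxf/fPdcd1Cre libraries did. The log2 fold change was -1.33 ± 0.308, with an adjusted p of 0.0587 (SE; edgeR), just above the threshold of 0.05. Lrrc32 was called in 4 of 16 alternatives, with an adjusted p of 0.0164 in DESeq2, 0.0149 with no filter on low counts and 0.0451 without Toxf/fPdcd1Cre replicate 1. Over the 16 alternatives the adjusted p ran from 0.00868, with the replicate block that takes the shared Toxf/f library as replicate 2, to 0.772 in edgeR without Toxf/f replicate 3, where the log2 fold change was -0.88. Its FPKM values imply a gene length of 1.83 to 3.97 kb, which differed 2.16-fold between libraries, so its level per length is less certain than that of the other genes.

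Nt5e encodes CD73, the enzyme that makes adenosine outside the cell. Its levels were 23.3, 6.38 and 6.60 CPM in the Toxf/fPdcd1Cre libraries and 10.1 and 12.6 CPM in the Toxf/f libraries. Toxf/fPdcd1Cre replicate 1 was above both Toxf/f libraries, and replicates 2 and 3 were below both. Its log2 fold change was 0.09 ± 0.465, with a wide 95% interval of -0.93 to 1.11 (SE; edgeR, adjusted p = 0.979). Without Toxf/fPdcd1Cre replicate 1 it was -0.84 (edgeR, adjusted p = 0.0877). The gamma-delta T cell marker Cd163l1 was also highest in that library, at 78.0, 27.4 and 25.4 CPM in Toxf/fPdcd1Cre replicates 1 to 3, against 5.31 and 3.25 CPM in Toxf/f libraries. Trdc, the constant region of the delta receptor chain, had 325, 221 and 232 CPM in Toxf/fPdcd1Cre, against 160 and 126 CPM in Toxf/f libraries. Of the 5 tested gamma-delta markers 2 were called higher, none was at 0 in every library, and their summed level was 290 to 475 CPM in Toxf/fPdcd1Cre and 174 to 201 CPM in Toxf/f libraries. The part of these cells in the Nt5e values was not tested. On the adenosine list, 0 of 7 tested genes were called in edgeR and 0 in DESeq2, and at an unadjusted p under 0.05 in edgeR 1, Dpp4, was higher. Dpp4 averaged 203 ± 18.8 CPM in Toxf/fPdcd1Cre and 153 ± 7.25 CPM in Toxf/f libraries, and Slc29a1, a nucleoside transporter, 119 ± 2.28 CPM in Toxf/fPdcd1Cre and 108 ± 15.6 CPM in Toxf/f.

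Capg, an actin-capping protein of activated regulatory T cells and myeloid cells, had 22.1, 19.0 and 15.9 CPM in the Toxf/fPdcd1Cre libraries, against 22.2 and 27.6 CPM in the Toxf/f libraries. The genotypes did not overlap, but Toxf/fPdcd1Cre replicate 1 lay less than 0.1 CPM below the Toxf/f library of replicates 1 and 2. Its log2 fold change was -0.39 ± 0.184, with a 95% interval of -0.79 to 0.01 (SE; edgeR, adjusted p = 0.499).

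The order of the 10 genes by FPKM differed between genotypes. In Toxf/fPdcd1Cre libraries Il2ra came first at 26.4 ± 5.20 FPKM, then Ikzf2 at 15.8 ± 1.94 and Capg at 15.7 ± 3.48, which overlapped. Tnfrsf18 followed at 8.15 ± 0.470 FPKM. Nt5e, Tnfrsf4, Lrrc32 and Gpr83, from 3.04 down to 1.06 FPKM, overlapped each with the next. Ikzf4 stood at 0.533 ± 0.160 and Foxp3 last at 0.0867 ± 0.0757 FPKM (SD, n = 3). In Toxf/f libraries Il2ra at 25.01 ± 6.51 FPKM overlapped with Capg at 20.4 ± 3.01. Tnfrsf18 came next at 16.9 ± 0.474, and Ikzf2 at 13.1 ± 1.72 overlapped with Tnfrsf4 at 13.0 ± 0.0141. Gpr83 stood at 5.39 ± 0.219 FPKM. Foxp3, Nt5e, Ikzf4 and Lrrc32, from 3.09 down to 2.22 FPKM, overlapped each with the next (SD, n = 2). Foxp3 thus ranked 10th in Toxf/fPdcd1Cre and 7th in Toxf/f libraries, and Tnfrsf4 6th and 5th. The lengths implied by counts and FPKM differed between libraries 1.58-fold for Ikzf4, 1.504-fold for Ikzf2 and 1.35-fold for Foxp3.

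**Figure D3:**
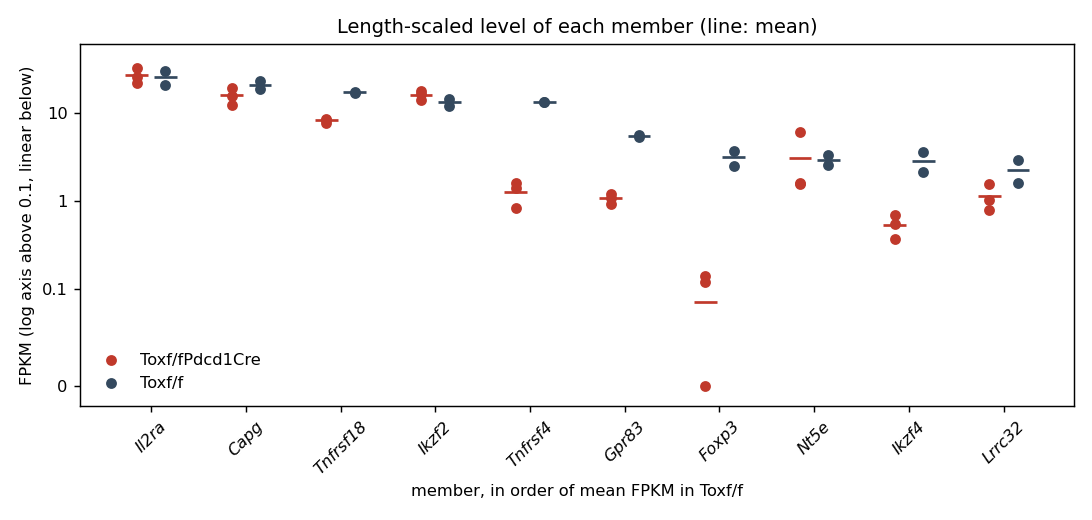
FPKM level of each of the 10 genes in each library (points) with the mean of each genotype (line), Toxf/fPdcd1Cre left of Toxf/f, on an axis that is log above 0.1 FPKM and linear below. Il2ra, Ikzf2 and Capg stay at 11.9 FPKM or more in all 5 libraries, while Foxp3 is at 0.12, 0.14 and 0 FPKM in Toxf/fPdcd1Cre and at 2.48 and 3.69 FPKM in Toxf/f libraries.

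By age, the library ratios kept their direction for every gene called. At 3 weeks Foxp3 had a log2 ratio of -3.83 (the mean of Toxf/fPdcd1Cre replicates 1 and 2 over the Toxf/f library of that age). At 4 weeks, replicate 3 of each genotype, the Toxf/fPdcd1Cre library held 0 counts, and Foxp3 was at least 47.3-fold lower than in the Toxf/f library when that 0 is set to the limit of 3 counts per library. The log2 ratios at 3 and 4 weeks were -3.02 and -3.68 for Tnfrsf4, -2.35 and -2.20 for Gpr83, -1.71 and -2.21 for Ikzf4, and -1.06 and -0.88 for Tnfrsf18. With age as a covariate all 5 were called. A test of the interaction between genotype and age gave an adjusted p of 1.00 for each of the 10 genes (edgeR), with 1 library per genotype at 4 weeks.

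The genes most like Foxp3 in pattern over the 5 libraries were sought among 12749 tested genes with a mean of at least 1 CPM, by the root mean square difference of log2 CPM after each gene was centred on its own mean. Among the nearest were the immunoglobulin heavy chain constant region genes Ighe (0.718), Ighg3 (0.726) and Ighg1 (0.982), and Commd1b (0.885). Ighe had 0.0683, 0 and 0 CPM in Toxf/fPdcd1Cre, against 5.63 and 4.28 CPM in Toxf/f libraries. Among the regulatory T cell genes, Tnfrsf4 lay nearest to Foxp3 at 0.881, followed by Gpr83 at 1.42 and Ikzf4 at 1.54, and Il2ra lay farthest at 2.49. This is a description over 5 libraries that all the genes share, with no test.

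Further genes known from regulatory T cells were taken from a separate list, which was also drawn up with earlier results of these data known. Of the 17 tested, 2 fell in edgeR, 0 rose and 15 were not called, with a median log2 fold change of -0.35. At an unadjusted p under 0.05, 8 were lower and 0 higher, beside 7.26% lower over all genes. DESeq2 called 4 lower and 0 higher, beside 2.24% lower over all genes. Tnfrsf9, which encodes the costimulatory receptor 4-1BB, had 4.65, 2.87 and 3.44 CPM in Toxf/fPdcd1Cre, against 19.1 and 17.6 CPM in Toxf/f libraries. Its log2 fold change of -2.33 ± 0.242 (SE; edgeR, adjusted p = 0.000574) was close to that of Gpr83, and it was called in all 16 alternatives that tested it. The chemokine receptor gene Ccr4 averaged 28.7 ± 6.87 CPM in Toxf/fPdcd1Cre against 60.02 ± 0.222 CPM in Toxf/f, a log2 fold change of -1.06 ± 0.179 (edgeR, adjusted p = 0.0125). The inhibitory receptor Ctla4 and the costimulatory receptor Icos, picked for mention after their values were seen, were not called, at log2 fold changes of 0.11 ± 0.234 and 0.10 ± 0.373. Icos was high in Toxf/fPdcd1Cre replicate 1 alone, at 119, 37.9 and 46.2 CPM in Toxf/fPdcd1Cre and 57.2 and 69.3 CPM in Toxf/f libraries. Without that library 6 of the 17 were called lower. Without either Toxf/f library, or without Toxf/fPdcd1Cre replicate 3, 1 was.

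**Figure D4:**
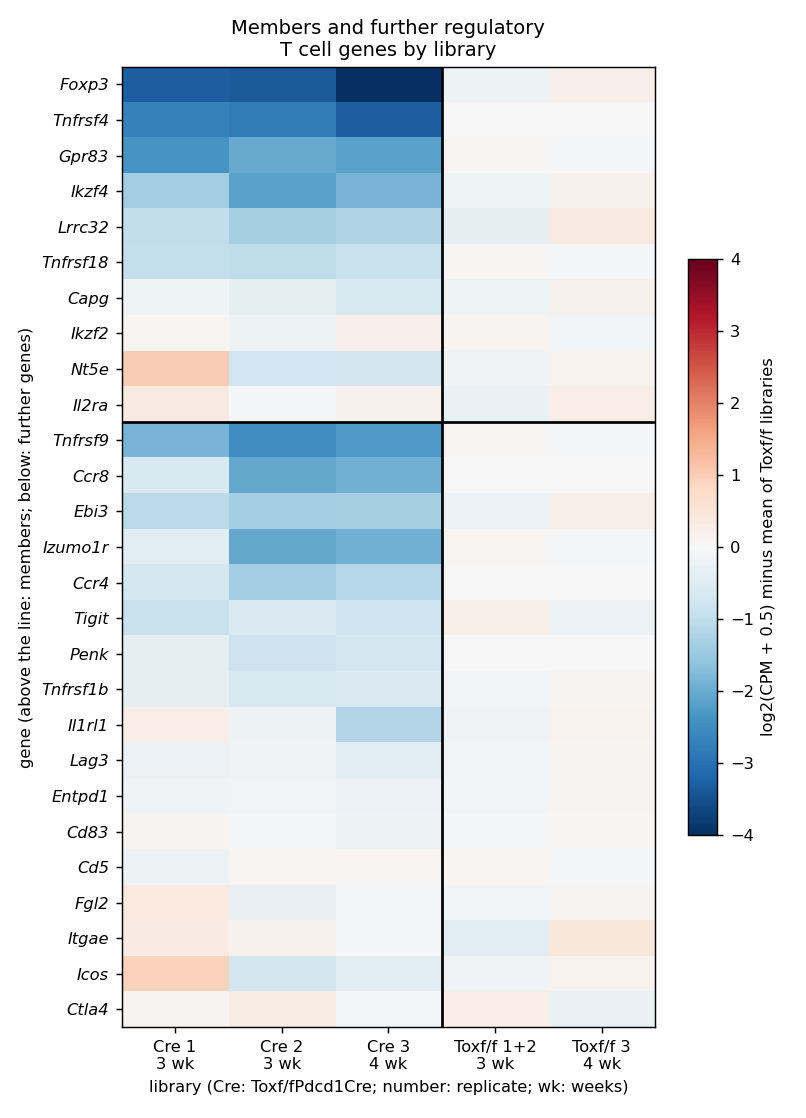
Colour gives log2(CPM + 0.5) in each library minus the mean of the Toxf/f libraries, for the 10 genes (above the line) and 17 further regulatory T cell genes (below it); columns are the 3 Toxf/fPdcd1Cre libraries, then the 2 Toxf/f libraries. Foxp3, Tnfrsf4, Gpr83 and Tnfrsf9 are low in all 3 Toxf/fPdcd1Cre columns, and Nt5e and Icos are highest in Toxf/fPdcd1Cre replicate 1.

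Of 25 tested transcriptional regulators of Foxp3, 5 fell in edgeR and 0 rose, with a median log2 fold change of -0.05. At an unadjusted p under 0.05, 8 were lower and 0 higher, and DESeq2 called 5 lower and 0 higher. Bach2, a repressor that favours regulatory T cell formation, fell 2.82-fold (17.1 ± 4.07 CPM in Toxf/fPdcd1Cre, 48.3 ± 5.07 CPM in Toxf/f; edgeR, adjusted p = 0.0029). The orphan nuclear receptors Nr4a1 and Nr4a3, which T cell receptor signals induce, averaged 39.0 ± 8.22 and 14.1 ± 2.49 CPM in Toxf/fPdcd1Cre, against 88.7 ± 0.172 and 31.6 ± 3.99 CPM in Toxf/f libraries. Their log2 fold changes were -1.18 ± 0.172 and -1.17 ± 0.185 (edgeR, adjusted p = 0.00536 and 0.00862). Rel, the NF-kB subunit c-Rel, averaged 31.6 ± 1.18 CPM in Toxf/fPdcd1Cre and 57.1 ± 12.1 CPM in Toxf/f, a log2 fold change of -0.85 ± 0.153 (edgeR, adjusted p = 0.0172). The fifth was Lef1. Without Toxf/f replicates 1 and 2 only 2 of the regulators were called in edgeR, and without Toxf/f replicate 3 none was.

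On the interleukin-2 and STAT5 list, 2 of 15 tested genes fell in edgeR and 0 rose, with a median log2 fold change of -0.36; unadjusted, 7 were lower and 0 higher at p under 0.05, and DESeq2 called 2 lower and 0 higher. The survival factor Bcl2 averaged 30.8 ± 2.45 CPM in Toxf/fPdcd1Cre and 64.9 ± 0.911 CPM in Toxf/f libraries (log2 fold change -1.08 ± 0.134; edgeR, adjusted p = 0.0024). The interleukin-7 receptor gene Il7r averaged 30.5 ± 5.80 CPM in Toxf/fPdcd1Cre and 51.1 ± 3.33 CPM in Toxf/f (log2 fold change -0.75 ± 0.166; edgeR, adjusted p = 0.0496). Il2 itself had 0 counts in each Toxf/fPdcd1Cre library and 1 in each Toxf/f library and was not tested. On the TGF-beta list, which belongs with Lrrc32, 2 of 14 tested genes fell in edgeR and 0 rose, with a median of -0.22; unadjusted, 6 were lower and 0 higher, and DESeq2 called 2 lower and 0 higher. Both are inhibitors of the pathway: Smad7 (log2 fold change -1.46 ± 0.260; edgeR, adjusted p = 0.0168) and Skil (-0.88 ± 0.158; edgeR, adjusted p = 0.0172). Leaving out 1 library moved the calls to between 0 and 4 on the interleukin-2 list and between 0 and 3 on the TGF-beta list. Both lists had the most calls without Toxf/fPdcd1Cre replicate 1 and none without Toxf/f replicate 3; the interleukin-2 list had none without Toxf/f replicates 1 and 2, and the TGF-beta list none without Toxf/fPdcd1Cre replicate 3.

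Among ligands and signalling partners of the TNF receptor genes, 4 of 13 tested genes fell in edgeR and 0 rose, with a median of -0.71; unadjusted, 6 were lower and 0 higher, and DESeq2 called 5 lower and 0 higher. These were the NF-kB subunit genes Relb (16.7 ± 3.33 CPM in Toxf/fPdcd1Cre, 36.2 ± 4.63 CPM in Toxf/f) and Nfkb2 (34.3 ± 2.47 CPM in Toxf/fPdcd1Cre, 56.2 ± 8.68 CPM in Toxf/f), the adaptor gene Traf1 (8.78 ± 3.16 CPM in Toxf/fPdcd1Cre, 24.7 ± 0.890 CPM in Toxf/f) and the costimulatory ligand gene Cd80 (5.61 ± 2.90 CPM in Toxf/fPdcd1Cre, 16.8 ± 3.32 CPM in Toxf/f). Their adjusted p values in edgeR were 0.0107, 0.0329, 0.0115 and 0.0365. Without either Toxf/f library none of them was called, without Toxf/fPdcd1Cre replicate 1 the list had 6 calls, and without Toxf/fPdcd1Cre replicate 2 or 3 it had 2. The ligand of OX40, Tnfsf4, had 1 count in each Toxf/fPdcd1Cre library and 16 and 8 counts in the Toxf/f libraries, and did not pass the filter on low counts. The ligand of GITR, Tnfsf18, had at most 4 counts in any library.

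Among the lists of markers of other cells, some held genes called lower, some held genes called higher, and some held none. Of 10 markers of mature single-positive T cells, 7 were called lower and 0 higher in edgeR (8 and 0 in DESeq2; 9 and 0 at an unadjusted p under 0.05), with a median log2 fold change of -1.08 and a summed level of 613 to 660 CPM in Toxf/fPdcd1Cre and 948 to 1034 CPM in Toxf/f libraries. The homing receptor gene Ccr7 averaged 21.5 ± 7.14 CPM in Toxf/fPdcd1Cre and 98.0 ± 10.9 CPM in Toxf/f libraries, and Gimap3 13.8 ± 3.10 CPM in Toxf/fPdcd1Cre and 55.1 ± 5.44 CPM in Toxf/f, both called in all 17 alternatives. Without Toxf/f replicates 1 and 2 the list had 3 calls and without Toxf/f replicate 3 it had 2. Of 11 dendritic cell markers 2 were called lower in edgeR, 3 in DESeq2 and 8 at an unadjusted p under 0.05, and 0 were higher by any of these. All 11 fitted log2 fold changes were below 0, with a median of -0.74. The edgeR calls were the chemokine gene Ccl22 (17.6 ± 12.5 CPM in Toxf/fPdcd1Cre, 123 ± 8.33 CPM in Toxf/f) and Flt3. The list summed to 558 to 836 CPM in Toxf/fPdcd1Cre against 1077 to 1346 CPM in Toxf/f. Most of each sum was H2-Aa, which was not called (edgeR, adjusted p = 0.0855). H2-Aa had 692, 554 and 458 CPM in Toxf/fPdcd1Cre and 828 and 1064 CPM in Toxf/f libraries. Of 7 B cell markers Igkc alone was called lower in edgeR, against 2 in DESeq2 and 4 at an unadjusted p under 0.05. The list summed to 57.3 to 73.0 CPM in Toxf/fPdcd1Cre against 191 to 209 CPM in Toxf/f, and most of the Toxf/f sum was Igkc. Igkc had 6.83, 18.8 and 10.7 CPM in Toxf/fPdcd1Cre, against 155 and 110 CPM in Toxf/f libraries. Of the fitted log2 fold changes on this list 5 were below 0 and the rest above, with Cd79b at 0.07 (edgeR). Of 9 double-positive thymocyte markers none was called in edgeR or DESeq2 or had an unadjusted p under 0.05, with a median log2 fold change of 0.17 and sums of 8982 to 11408 CPM in Toxf/fPdcd1Cre against 9016 to 9746 CPM in Toxf/f. Of 9 natural killer and innate lymphoid markers, Klrk1 and Klrb1c were called higher in edgeR (3 in DESeq2, which also called 1 lower). Most of that list went the other way, with 6 of the 9 fitted log2 fold changes below 0 and a median of -0.34 (edgeR). The list summed to 196 to 278 CPM in Toxf/fPdcd1Cre against 195 to 202 CPM in Toxf/f. The calls for Flt3, Ccl22, Klrk1, Klrb1c, Cd163l1 and Trdc were lost without either Toxf/f library. None of 10 macrophage markers was called in edgeR, but 1 was lower in DESeq2 and 3 at an unadjusted p under 0.05. The list summed to 563 to 723 CPM in Toxf/fPdcd1Cre against 903 to 1008 CPM in Toxf/f. Its gene Lyz2 had 105, 214 and 219 CPM in Toxf/fPdcd1Cre against 427 and 354 CPM in Toxf/f libraries (edgeR, adjusted p = 0.0539). Of the fitted log2 fold changes 8 were below 0, with a median of -0.27, while Adgre1 (0.29) and Fcgr1 (0.12) were above 0 (edgeR). Of 9 thymic epithelial markers, the keratin gene Krt14 alone was called lower, by edgeR and DESeq2 alike, and 2 were lower at an unadjusted p under 0.05. Krt14 averaged 14.2 ± 5.01 CPM in Toxf/fPdcd1Cre and 34.6 ± 8.605 CPM in Toxf/f libraries (edgeR, adjusted p = 0.0275), and lost its call without either Toxf/f library or without Toxf/fPdcd1Cre replicate 3. The epithelial list as a whole summed to 2437 to 2669 CPM in Toxf/fPdcd1Cre against 2156 to 2468 CPM in Toxf/f. Of 12 markers of DN2 and DN3 thymocytes, Cd44 and Il7r were lower in edgeR and DESeq2, with 3 lower and 2 higher at an unadjusted p under 0.05. Cd44, an adhesion receptor, averaged 30.5 ± 3.84 CPM in Toxf/fPdcd1Cre and 48.5 ± 0.904 CPM in Toxf/f libraries (edgeR, adjusted p = 0.0437). Both calls were lost without any 1 library other than Toxf/fPdcd1Cre replicate 1. That list summed to 5201 to 6355 CPM in Toxf/fPdcd1Cre against 4943 to 5292 CPM in Toxf/f. Most of each sum was Rag1, which is on the double-positive list as well. Rag1 had 4237, 5489 and 5411 CPM in Toxf/fPdcd1Cre and 4200 and 4403 CPM in Toxf/f libraries. None of 7 tested endothelial and platelet markers and of 7 fibroblast and pericyte markers was called by edgeR or DESeq2, and at an unadjusted p under 0.05 0 and 1 were higher. None of 12 immediate-early genes and of 9 mitochondrial genes was called by edgeR or DESeq2, with 4 and 0 lower at an unadjusted p under 0.05. All 12 fitted log2 fold changes of the immediate-early genes were nonetheless below 0, with a median of -0.38 (edgeR). For the mitochondrial genes 3 of 9 were below 0, with a median of 0.08. No marker on these lists was at 0 in every library. Their part in the lower levels of Foxp3, Ikzf4, Tnfrsf4, Tnfrsf18 and Gpr83 was not tested.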

How the data were processed

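Per the labels' protocols, libraries were prepared from Trizol-extracted total RNA of sorted thymocytes with a NEBNext Ultra kit. The authors deposited 1 table per sample that lists, for 22298 genes, estimated counts and FPKM (fragments scaled to transcript length and library size), per the file headers. Tools named in the submitters' processing notes were fastp 0.18.0, HISAT2 and StringTie 1.3.1. Genome build, annotation, counter and strandedness were not given in the sources used here. Both the 10 genes and the gene lists were chosen with earlier results of these data known.

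Estimated counts were rounded to whole numbers. The identical files of Toxf/f replicates 1 and 2 were entered as 1 library, so 3 Toxf/fPdcd1Cre libraries were compared with 2 Toxf/f libraries. Genes were filtered with filterByExpr, scaled by TMM and fitted in edgeR 4.0.16 (quasi-likelihood test, Toxf/fPdcd1Cre minus Toxf/f), with Benjamini-Hochberg adjustment over all 14121 genes tested and a threshold of 0.05. Intervals are 95%. A count of 0 allows up to 3 counts, for counting error only. FPKM levels, which correct for length, served for comparisons between genes. Alternatives were other scalings, no filter or 10 CPM in 3 libraries, DESeq2 1.42.0, limma 3.58.1 (voom, and log2 FPKM with a pseudocount of 1 or 0.1), age, a replicate block, identical files apart, a log2 fold change of at least 1, and each library left out.

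Named besides the 10 genes and Tox were, from each pathway list, up to 4 called genes with the smallest p (with none called, the 2 with the highest mean), from each marker list the 2 with the highest mean and up to 2 called genes, adjacent and overlapping genes, and the 5 genes nearest to Foxp3 in pattern, without predicted genes and V, D and J segments. Others are marked in the text, and 1 gene that this rule gave is not reported here. Positions are those of GENCODE M21 (GRCm38), found by Ensembl identifier for 22255 genes; the build behind the files may be another. Promoter windows come from RefSeq on GRCm38.p6, where 7 of the 10 genes had an entry. The RefSeq transcription starts can differ from the GENCODE gene starts.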

Additional observations from a re-analysis of the deposited data

Results flagged for a closer look

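For 2 of the 10 genes, neither of them called, the Toxf/fPdcd1Cre libraries all lay on one side of the Toxf/f library at 4 weeks and all on the other at 3 weeks. Ikzf2 had a log2 ratio of Toxf/fPdcd1Cre over Toxf/f of 0.31 at 4 weeks and -0.17 at 3 weeks, a difference of 0.484. Il2ra had a log2 ratio of -0.09 at 4 weeks and 0.39 at 3 weeks, a difference of -0.475. There was 1 Toxf/fPdcd1Cre library at 4 weeks and 2 at 3 weeks against 1 Toxf/f library at each age. The mean ratio of Nt5e also changed sign, at -0.92 at 4 weeks and 0.28 at 3 weeks, but its 3-week Toxf/fPdcd1Cre libraries lay on both sides of the Toxf/f library. The interaction of genotype and age had an adjusted p of 1.00 for each of these genes (edgeR).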

How the results depend on the processing

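All genes called numbered 232, and 417 with no filter on low counts, 67 with at least 10 CPM in 3 libraries, 359 in DESeq2, 126 on log2(FPKM + 0.1), 125 with age as a covariate, 380 with the identical files counted separately, and 31 to 606 when a library was left out (31 without Toxf/f replicate 3, 49 without Toxf/f replicates 1 and 2, 114 without replicate 3 of Toxf/fPdcd1Cre and 606 without its replicate 1). Of the 10 regulatory T cell genes 5 were called, against 2 to 6 when a library was left out: 2 without Toxf/f replicate 3 (Tnfrsf4 and Gpr83) and 3 without Toxf/f replicates 1 and 2 (Foxp3, Tnfrsf4 and Gpr83). The filter of 10 CPM left 5 of them, of which 1, Tnfrsf18, was called, since Foxp3, Gpr83, Ikzf4 and Tnfrsf4 fell below it. Of 1078 values over 64 named genes and 17 alternatives, 941 stayed on the same side of the threshold, 114 lost and 23 gained a call, and 0 called values changed sign. Of the 941, 44 values, over 12 uncalled genes that include Il2ra, Ikzf2 and Nt5e, changed sign. With the replicate number as a block, 435 genes were called when the shared Toxf/f library was taken as replicate 1 and 868 when it was taken as replicate 2, the number in its column heads, and 5 and 6 of the 10 genes. Deviations of same-numbered libraries correlated at -0.198, 0.105 and -0.157. The deviations of the 2 Toxf/f libraries mirror each other, and 1 of these libraries stands for replicates 1 and 2. These values thus cannot decide whether the numbers pair the libraries. With a single Toxf/f library left, that library was assumed to vary like the other genotype. Foxp3 rests on few counts, at most 6.19 in a Toxf/fPdcd1Cre library.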
